A study of Mus musculus with 2 samples.

Results

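Interleukin-1 genes were examined in an ATAC-seq experiment on mouse bone marrow-derived macrophages (BMDMs), macrophages that differentiate from marrow cells in culture under M-CSF. The genes are Il1a, Il1b and Il1rn, and their peaks were chosen by position alone: a peak belonged to a gene when an end of that gene was the closest protein-coding gene end in the RefSeq table and lay within 100 kb of the peak summit. This gave 14 peaks of the 114785 in the series, 12 of 37725 in the R848 list and 2 of 77060 in the untreated list. The R848 group was 1 library of wild-type BMDMs given R848 (resiquimod), a small molecule agonist of TLR7, for 2 h at 100 ng/ml. The untreated group was 1 library of wild-type BMDMs without R848, and both were grown with M-CSF at 20 ng/ml. With 1 library per group there is no replicate error, so a peak listed for a single library carries no p-value, and its absence from the other list does not show that the libraries differed there. In ATAC-seq the Tn5 transposase inserts adapters into accessible DNA, and a peak is a place where sequenced tags pile up over the local background.

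IL-1α and IL-1β, the products of Il1a and Il1b, are cytokines that bind the same receptor and drive fever, endothelial activation and neutrophil recruitment. The product of Il1rn is the IL-1 receptor antagonist, which occupies that receptor without signalling. Macrophages make little IL-1β until a pattern-recognition receptor such as a Toll-like receptor activates NF-kB, and the precursor is then cut by caspase-1 in an inflammasome before release, while IL-1α is active as a precursor as well. In mouse all 3 genes lie on chromosome 2 (mm10). Il1a (gene ID 16175, chr2:129299609-129310186) and Il1b (gene ID 16176, chr2:129364569-129371164) are neighbours on the minus strand with 54.4 kb between them. Il1rn (gene ID 16181, chr2:24336860-24351491) is on the plus strand 105 Mb away, beside the interleukin-36 genes.

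The RefSeq promoter windows of these genes (GRCm38.p6, 250 bases before to 50 bases after a start) are shown because a single one of the starts below had a peak over it. Capitals mark matches to the motifs searched on both strands, written 5′ to 3′ on the strand of the gene. These were AP-1 (TGANTCA), PU.1 (GAGGAAGT), C/EBP (TTGCNNAA), STAT (TTCNNNGAA), the TATA box (TATAAA), a pair of NF-kB patterns and the interferon-stimulated response element (ISRE).
Il1a, chr2:129309923-129310222, minus strand: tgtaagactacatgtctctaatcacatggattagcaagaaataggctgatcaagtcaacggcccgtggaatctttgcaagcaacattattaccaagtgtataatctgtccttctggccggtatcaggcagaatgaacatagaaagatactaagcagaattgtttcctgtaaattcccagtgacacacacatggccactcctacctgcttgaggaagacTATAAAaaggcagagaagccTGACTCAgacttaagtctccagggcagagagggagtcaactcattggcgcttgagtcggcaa
Il1b, chr2:129371090-129371389, minus strand: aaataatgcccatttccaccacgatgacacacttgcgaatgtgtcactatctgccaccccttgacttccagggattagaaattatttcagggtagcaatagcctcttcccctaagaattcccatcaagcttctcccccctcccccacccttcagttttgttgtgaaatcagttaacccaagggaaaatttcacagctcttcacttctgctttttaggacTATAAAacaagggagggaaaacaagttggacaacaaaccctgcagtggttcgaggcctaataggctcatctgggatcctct
Il1rn, upstream start, chr2:24336610-24336909, plus strand: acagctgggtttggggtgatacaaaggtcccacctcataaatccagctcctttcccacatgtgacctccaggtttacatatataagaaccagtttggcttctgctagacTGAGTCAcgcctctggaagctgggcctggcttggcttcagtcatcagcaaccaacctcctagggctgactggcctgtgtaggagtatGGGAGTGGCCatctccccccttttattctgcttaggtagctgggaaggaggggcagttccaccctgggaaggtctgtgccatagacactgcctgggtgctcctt
Il1rn, downstream start, chr2:24345121-24345420, plus strand: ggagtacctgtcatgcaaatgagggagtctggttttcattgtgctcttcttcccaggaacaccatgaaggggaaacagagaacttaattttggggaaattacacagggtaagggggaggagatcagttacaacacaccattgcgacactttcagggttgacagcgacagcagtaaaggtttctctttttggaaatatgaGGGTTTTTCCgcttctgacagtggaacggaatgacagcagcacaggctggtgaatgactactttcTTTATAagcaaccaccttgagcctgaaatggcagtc

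The downstream Il1rn window held a whole R848 peak of 227 bp, from base 59 to base 285 of the 300, and no untreated peak. Inside that stretch the letters GGGTTTTTCC, a match to 1 of the NF-kB patterns, stood at bases 200 to 209 and ended 41 bases before the start. That pattern occurred in 1.63% of 32851 promoter windows. Another RefSeq start of Il1rn lies 80 bases further upstream, and its window shares most of its letters and the same R848 peak. In the human gene, the upstream and downstream starts are known to give intracellular and secreted forms of the antagonist. The Il1b and Il1a windows had no peak in either list. The closest R848 peak began 983 bp from the Il1b window and 3664 bp from the Il1a window, and the closest untreated peak was 67558 bp from the Il1b window and 6470 bp from the Il1a window.

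Both cytokine genes had a TATA box close to the start, with 25 bases between it and the Il1b start and 26 bases between it and the Il1a start. A TATAAA match on either strand occurred in 13.6% of all windows. The AP-1 letters stood 5 bases before the Il1a start and 134 bases before the upstream Il1rn start, and 7.81% of windows held them. In the downstream Il1rn window the TATA box letters were on the opposite strand and after the start. The upstream Il1rn window also held the other, looser NF-kB pattern, which 20.7% of windows held. No match to the PU.1, C/EBP, STAT or ISRE letters was found in the windows of these genes, where 3.20%, 10.8%, 8.30% and 3.44% of all windows had one. Over all windows, an R848 peak overlapped 25.2% and an untreated peak 18.2%. Of the 5 windows of these genes, R848 peaks overlapped 2, both at the downstream Il1rn starts, and untreated peaks overlapped 0.

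The libraries set how much a single peak can carry. The fold that the authors deposited compares the pileup of tags at a summit with its own library's background, and both quantities were solved from the deposited fold and p-value of each peak. The genome-wide background was 1.36 tags in the R848 library and 0.968 tags in the untreated library, a ratio of 1.40. The fewest tags called at that background were 5 in the R848 list and 4 in the untreated list, over at least 200 bp in both. The number of reads per library is unknown here. The untreated list, although from the lower background, was the longer one. All 7 macrophage markers checked (Csf1r, Adgre1, Itgam, Cd68, Lyz2, Spi1 and Mertk) had a peak assigned in each list. Of markers of other cells, R848 peaks lay at 0 of 5 T and NK cell, 3 of 4 B cell, 4 of 6 neutrophil, 3 of 4 dendritic cell and 3 of 3 stromal genes, and untreated peaks lay at 1, 1, 3, 3 and 2 of these. Of all protein-coding genes, 47.2% had a peak found only in the R848 list and 56.9% one found only in the untreated list. Peaks in both lists come on top of these shares, so the marker counts do not establish the cell type.

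In the R848 library, peaks absent from the untreated list (R848-only peaks) lay at all 3 interleukin-1 genes. Il1b had 6 R848-only peaks, Il1rn had 3 and Il1a had 2, and untreated-only peaks numbered 0 at Il1b, 0 at Il1rn and 1 at Il1a. A single peak, at Il1rn, was present in both lists. With 1 library per group, treatment and library cannot be told apart, and neither can more cells with an open site and a more open site per cell. Thus 11 of the 12 R848 peaks had no untreated counterpart, against 69% of all R848 peaks, and 1 of the 2 untreated peaks had no R848 counterpart, against 84.7% of all untreated peaks. Over all 21883 protein-coding genes, 47.2% had at least 1 R848-only peak, 10.3% had at least 3, 56.9% had at least 1 untreated-only peak and 20.8% had more R848-only than untreated-only peaks, as all 3 of these genes did. The mean over all genes was 0.885 R848-only and 1.74 untreated-only peaks, with medians of 0 and 1.

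Summed over the 3 genes, R848 peaks covered 3817 bp with a mean of 9.50 tags, and untreated peaks covered 462 bp with a mean of 6.50 tags. These means are not scaled by the background ratio of 1.40, and the untreated one rests on 2 peaks, of 4 and 9 tags. They do not show that the R848 peaks were stronger. The R848-only peaks of these genes had a median of 8 tags, and R848-only peaks of the whole list had a median of 7. A q-value of about 0.05 or lower (a −log10 q of at least 1.3) was reached by 8 of the 11 and by 40.9% of all R848-only peaks. A −log10 q of at least 5 was reached by 2 of the 11, both assigned to Il1b, and by 5.19% of all R848-only peaks. The other 9 R848-only peaks had 6 to 11 tags.

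**Figure D1:**
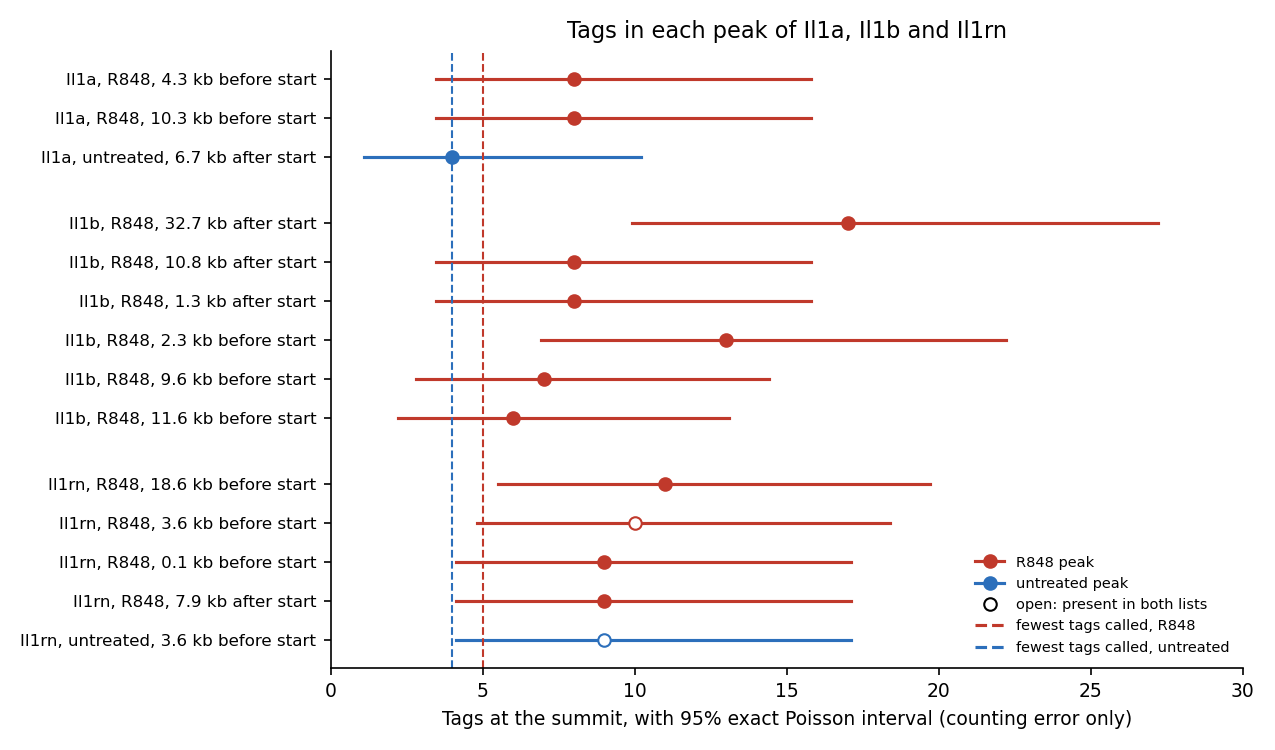
Tags at the summit of each of the 14 peaks, by gene, with exact Poisson intervals that cover counting error only. The distance is from the summit to the nearest RefSeq start of the gene, open points are the Il1rn peak present in both lists, and dashed lines mark the fewest tags called in each list at the genome-wide background (5 in the R848 list and 4 in the untreated list). The Il1b peaks with 17 and 13 tags have intervals that begin at 9.90 and 6.92 tags.

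At Il1b, the gene of the secreted pro-inflammatory cytokine, the 6 R848 peaks spread from 32.7 kb on the 3′ side of the start to 11.6 kb before it. The strongest, at chr2:129338175-129338584, held 17 tags (95% exact Poisson interval 9.90 to 27.2) with a fold of 7.63 and a q of 6.19e-11. It lay 32735 bp from the Il1b start, in the stretch between Il1a and Il1b, and 93.9% of R848 peaks had a lower fold. Its summit was 26165 bp from the 3′ end of Il1b, close to the middle of the 54.4 kb between the genes. The Il1a start was nearer to it than the Il1b start, so its place at Il1b rests on the gene-end rule. This peak overlapped no annotated gene of the RefSeq table, coding or noncoding. The next, at chr2:129373307-129373623, held 13 tags (6.92 to 22.2) with a fold of 5.26 and a q of 6.98e-06. Its summit lay 2263 bp before the start, inside the noncoding gene Il1bos, and 84.1% of R848 peaks had a lower fold. The untreated list had no peak over either of these sites.

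The other 4 Il1b peaks held 6 to 8 tags. One at chr2:129369737-129370107, with 8 tags (3.45 to 15.8) and a fold of 3.31, was inside the gene, 1309 bp after the start, and also overlapped Il1bos. One at chr2:129360236-129360435, with 8 tags and a fold of 3.81, lay 4187 bp beyond the 3′ end of the gene. The peaks at chr2:129380652-129381181 and chr2:129382658-129382904 lay 9552 bp and 11625 bp before the start, with 7 tags (2.81 to 14.4) and 6 tags. Their q-values were 0.0671 and 0.260, and that of the peak inside the gene was 0.0608, so 3 of the 6 Il1b peaks did not reach 0.05 in their own library. With both lists limited to a −log10 q of at least 1.3, Il1b had 3 R848-only peaks, and at 5 it had 2. Untreated peaks stayed at 0 in either case, because a limit can only remove peaks. Exons are not part of the gene table, and whether a site inside a gene was exonic or intronic was not analysed here.

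The untreated peaks nearest to the Il1b sites were 34.7 to 66.3 kb away. Among 25507 autosomal R848-only peaks the median distance to an untreated peak was 11.4 kb, and 16.6% were at least 34.7 kb away. The Il1b gene stood in a stretch of 135 kb with no untreated peak (chr2:129303454-129438946), which held 8 R848 summits, the 6 of Il1b and the 2 of Il1a. Of 68722 autosomal stretches between neighbouring untreated peaks, 3.60% were at least as long, and these held a median of 1 R848 summit. Stretches with at least 8 R848 summits numbered 17, and 6 of those, the one at Il1b included, were no longer than 135 kb.

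**Figure D2:**
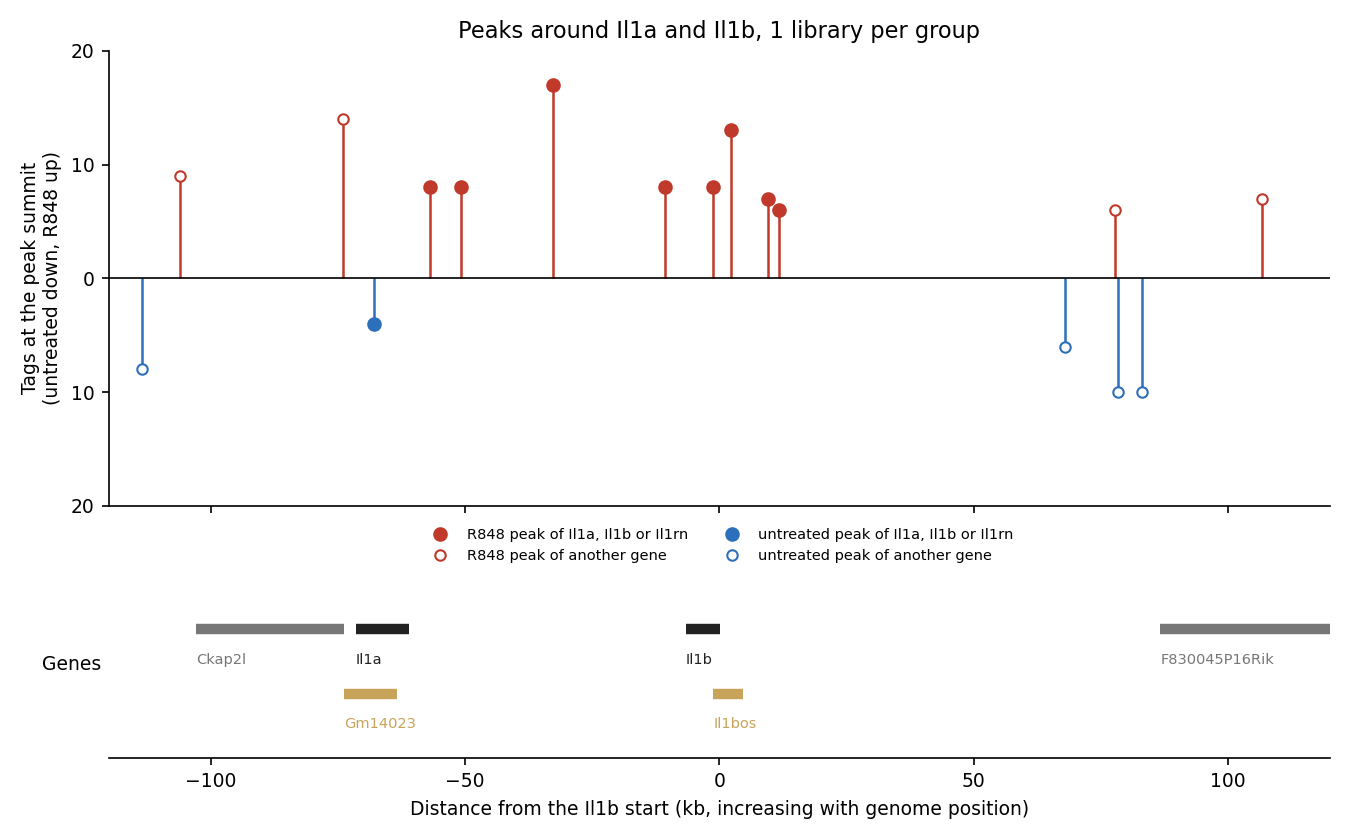
Tags at peak summits around Il1a and Il1b against distance from the Il1b start in kb, with R848 peaks pointing up and untreated peaks pointing down; filled points are peaks assigned to these genes and open points are peaks of other genes. Bars below are protein-coding genes (black and grey) and noncoding genes (tan). The 8 R848 peaks of the gene pair stand at 6 to 17 tags in a stretch where the untreated list has its next peaks at the edges.

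At Il1a, the gene of the cytokine that is active without cleavage, both R848 peaks lay before the start and outside the gene. The peak at chr2:129313886-129314354 held 8 tags (3.45 to 15.8) with a fold of 3.52, 4261 bp before the start. The peak at chr2:129320136-129320365 also held 8 tags, with a fold of 3.75, 10268 bp before the start. Their q-values were 0.0308 and 0.0145. The untreated peak of Il1a, at chr2:129303254-129303453, held 4 tags (1.09 to 10.2) with a fold of 2.54 and a q of 0.477. It lay inside the gene and inside the noncoding gene Gm14023, and 2.80% of untreated peaks had a lower fold. It was absent when both lists were limited to a −log10 q of at least 1.3, where Il1a kept its count of 2 R848-only peaks beside 0 untreated-only peaks, and at 5 there were 0 of each.

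At Il1rn, the gene of the receptor antagonist, 3 R848-only peaks and the peak found in both lists were present. The shared peak spanned chr2:24341611-24341880 in the R848 list, with 10 tags (4.80 to 18.4), and chr2:24341526-24341787 in the untreated list, with 9 tags (4.12 to 17.1). Its summits were 18 bp apart, inside the gene between the upstream and downstream starts. Divided by the background ratio, the R848 value comes to 7.12 untreated-equivalent tags (3.42 to 13.1), so a difference between the libraries was not detectable at this depth. The fold was 4.47 within the R848 list and 5.08 within the untreated list.

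The peak over the downstream Il1rn starts, at chr2:24345179-24345405, held 9 tags (4.12 to 17.1) with a fold of 3.50 and a q of 0.0216 in the R848 list. The peak 1762 bp beyond the 3′ end of the gene, at chr2:24353144-24353408, held 9 tags with a fold of 3.94 and a q of 0.00579. The remaining one, at chr2:24318170-24318450, held 11 tags (5.49 to 19.7) with a fold of 5.09 and a q of 4.93e-05, 18570 bp before the upstream start. It was 1 of 3 R848-only peaks in the stretch between Il1f10 and Il1rn. The others, with 10 tags at chr2:24311584-24312012 and 9 tags at chr2:24306693-24307136, were 25005 bp and 29898 bp before the upstream Il1rn start and were assigned to Il1f10. The untreated list had peaks of 8 and 5 tags in that stretch, 37826 bp and 38244 bp before the start, which overlapped none of them. With both lists limited to a −log10 q of at least 5, Il1rn had 0 peaks in either list.

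**Figure D3:**
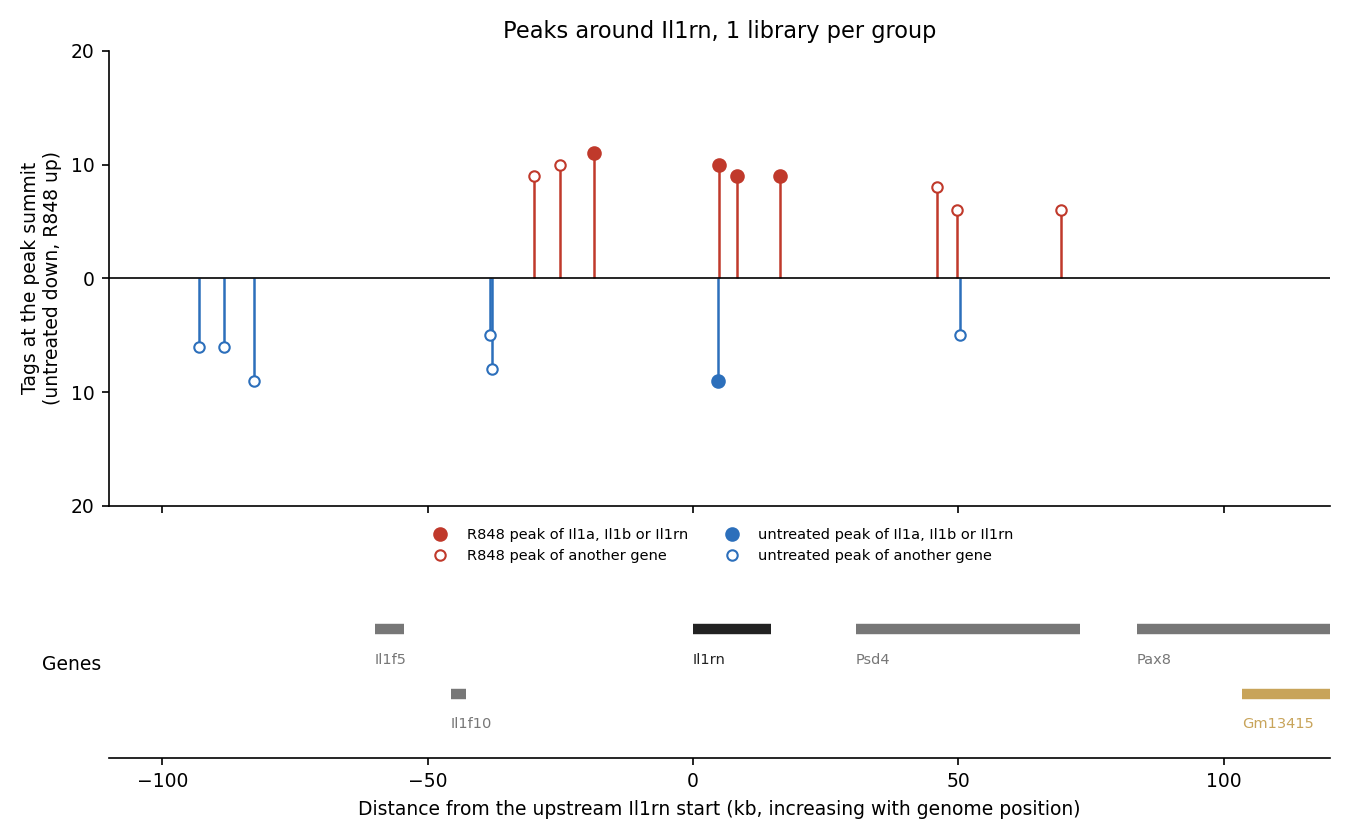
Tags at peak summits around Il1rn against distance from its upstream start in kb, drawn as for the Il1a and Il1b pair. Near 5 kb an R848 peak of 10 tags stands opposite an untreated peak of 9 tags, while the R848 peaks of 11, 9 and 9 tags have no untreated peak at the same place.

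The depth limits how far absence from the untreated list can be read. At the genome-wide background a site needed 4 untreated tags over at least 200 bp to be called, which corresponds to 5.62 tags in the R848 library after the background ratio, if tags were extended by the same length in both. The lower bound of the Poisson interval, divided by that ratio, was above 4 for the Il1b peaks of 17 tags (7.05) and 13 tags (4.93) and for none of the other 9 R848-only peaks. Among all R848-only peaks this held for 1960, or 7.53%. The 11-tag Il1rn peak came to 3.91. A higher local background in the untreated library would raise the number of tags needed there, and the summit is the highest point of a peak, so these intervals describe counting error only.

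Set beside all protein-coding genes, Il1b combined many R848-only peaks with no untreated peak. Only 3 other genes had at least 6 R848-only peaks and no untreated peak: Gpc1, which encodes a cell-surface proteoglycan, Kif17, which encodes a kinesin motor, and Htra3, which encodes a serine protease, with 6 each. Their R848-only peaks held 51, 47 and 43 tags in sum, and those of Il1b held 59, with the 17 of the peak between Il1a and Il1b included. The Il1b count of 6 fell to 5 with gene ends within 20 kb and to 3 at a −log10 q of at least 1.3. Genes alike were not counted again at those settings. As called, 9 genes had exactly 5 R848-only peaks and no untreated peak, and 123 had exactly 3. For Il1rn, 426 genes (1.95%) had at least 3 R848-only peaks and at most 1 untreated peak. For Il1a, 1285 genes (5.87%) had at least 2 and at most 1. By summed tags of R848-only peaks, the same 8 genes led both of these sets, namely Anxa5 (73 tags), Lpp (65), Lrrc74a (63), Il1b (59), Sorcs2 (59), Atad2b (57), Adora2a (56) and Tnks (55). The likeness is one of counts in a pair of libraries, with no replicate.

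**Figure D4:**
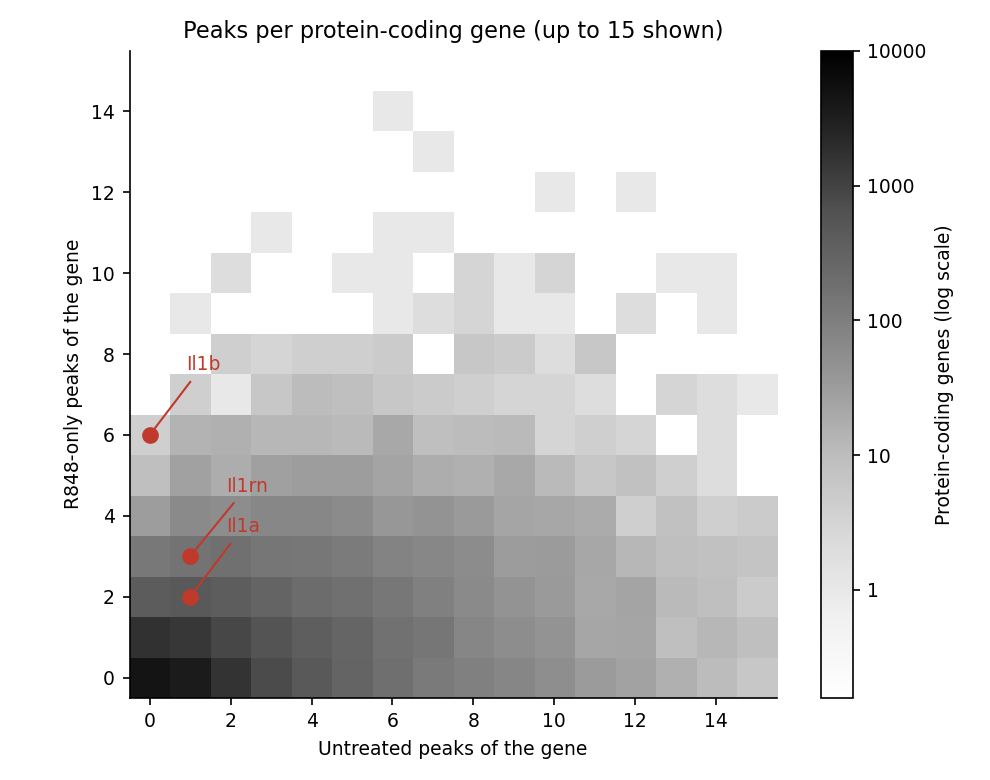
Number of protein-coding genes (grey, log scale) by untreated peaks and R848-only peaks assigned to the gene, up to 15 of each. Il1b stands at 6 R848-only and 0 untreated peaks, Il1rn at 3 and 1, and Il1a at 2 and 1.

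Genes flanking the interleukin-1 genes also had peaks in 1 list. To the left of Il1a, Ckap2l, which encodes a spindle protein, had 2 R848-only peaks and 1 untreated-only peak, of which the strongest in the R848 list lay 52 bp from a gene end with 14 tags and a fold of 6.36. Slc20a1, which encodes a phosphate transporter, had 2 R848-only peaks against 1 untreated-only peak, and 1 peak in both lists, 30 bp from a gene end with 18 R848 tags. Chchd5 had 1 R848-only peak, of 15 tags and 32 bp from a gene end, and 2 untreated-only peaks. To the right of Il1b, F830045P16Rik had 4 of each, Sirpa, which encodes an inhibitory receptor of macrophages, had 5 R848-only and 1 untreated-only, and Pdyn had 2 and 0. Sirpa also had 2 peaks present in both lists. Around Il1rn, the counts of R848-only peaks and of untreated-only peaks were 1 and 3 at Il1f6, 0 and 1 at Il1f5, 2 and 2 at Il1f10, 3 and 1 at Psd4, 0 and 3 at Pax8 and 4 and 4 at Cacna1b. Cacna1b also had 1 peak present in both lists.

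The rest of the interleukin-1 family and its pathway was read from lists of 29 genes ordered by role. A gene without an assigned peak can still have one close by, since a peak nearer to another gene's end goes to that gene. Over all 21883 protein-coding genes, 47.2% had an R848-only and 56.9% an untreated-only peak, with medians of 0 and 1 such peaks and means of 0.885 and 1.74. Of 7 other ligand genes, 4 had an R848-only peak and 5 an untreated-only peak, with 7 and 9 such peaks in all and a median of 1 of each. These ligand counts are near those shares and are no result about the list, and their balance turned with lists of equal length, at 7 and 5. Il33, the gene of a nuclear alarmin, had 2 R848-only and no untreated peaks, the stronger with 14 tags and a fold of 6.15. The interleukin-36 genes are listed in the gene table as Il1f6, Il1f8, Il1f9 and, for their receptor antagonist, Il1f5, and these had 1, 0, 2 and 0 R848-only and 3, 1, 2 and 1 untreated-only peaks. Il18, the gene of another cytokine that caspase-1 releases, had no assigned peak in either list.

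Receptor and decoy genes held more untreated-only than R848-only peaks, the direction of all genes. Of 9 genes, 5 had an R848-only and 7 an untreated-only peak, against 47.2% and 56.9% of all genes, the 5 being near that share. These were 8 R848-only and 29 untreated-only peaks in all, with medians of 1 and 4. The mean of 0.889 R848-only peaks per receptor or decoy gene is close to the 0.885 over all genes. The untreated-only median of 4 is above the median of 1 over all genes. With both lists limited to a −log10 q of at least 1.3, this list had 1 R848-only and 18 untreated-only peaks. It had 8 and 15 with lists of equal length, 5 and 14 with gene ends within 20 kb, and 0 of each at a −log10 q of at least 5. Il1r1, the gene of the signalling receptor for IL-1α and IL-1β, had 1 R848-only peak against 6 untreated-only peaks, with at most 6 and 9 tags. Il1r2, a decoy receptor gene, had 1 and 4, and Il1rl1, which encodes the IL-33 receptor, had 0 and 5. Il1rap, the gene of the shared co-receptor, had 3 and 8, beside a peak in both lists 176 bp from a gene end with 13 R848 tags. Il18bp and Sigirr, which encode a soluble binder of IL-18 and an inhibitory receptor, had no assigned peak. Of the 9, 6 genes, from Il1r2 to Il18rap, are neighbours on chromosome 1, so their peaks do not come from separate places in the genome. The untreated list was the longer one throughout, with 65279 untreated-only and 26035 R848-only peaks.

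Genes of maturation and release counted 9 R848-only against 2 untreated-only peaks over 5 genes, with medians of 1 and 0. An R848-only peak was listed at 4 of the 5 and an untreated-only peak at 1, against 47.2% and 56.9% of all genes. With every gene within 50 kb counted, the list had 11 of each. Casp1 and Casp4 lie close together on chromosome 9, so their peaks do not come from separate places in the genome. Casp4, which encodes the mouse caspase-11 that senses cytosolic lipopolysaccharide, had 4 R848-only and no untreated peaks, the strongest with 16 tags 22 bp from a gene end. Nlrp3, the inflammasome sensor gene, had 3 and 0, Gsdmd, the gene of the pore protein through which IL-1β leaves the cell, had 1 and 0, and Casp1 had 1 and 2 beside a shared peak 2 bp from a gene end with 17 R848 tags. Pycard, the inflammasome adaptor gene, had no assigned peak.

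Signalling genes counted 14 R848-only against 8 untreated-only peaks over 8 genes, with medians of 1.5 and 0. An R848-only peak was listed at 6 of the 8 and an untreated-only peak at 3, beside the same 47.2% and 56.9%. Irak2, a kinase gene of the receptor complex, had 5 and 0, the strongest R848-only peak with 12 tags. It also had a peak in both lists, 23 bp from a gene end with 11 R848 tags. Irak3, the gene of an inhibitory member of that kinase family, had 2 and 1, and the stronger R848-only peak, with its summit 658 bp from a gene end, held 18 tags with a fold of 5.76. Traf6, a ubiquitin ligase gene, had 2 and 0, Irak4 had 1 and 0, Tollip had 1 and 1, and Map3k7, which encodes the kinase TAK1, had 3 and 6. Tollip and Map3k7 each also had an R848 peak present in both lists, with 15 and 17 R848 tags. Irak1 had 0 of each and a peak in both lists, and Myd88, the adaptor gene shared by the interleukin-1 and Toll-like receptors, had no assigned peak. Over the 4 lists together, 19 of 29 genes had an R848-only peak and 16 an untreated-only peak, the 16 being near the share over all genes. With peaks of a −log10 q under 1.3 left out of both lists, the sums over the 4 lists were 21 R848-only and 31 untreated-only peaks, against 38 and 48 as called. The balance turned with lists of equal length, at 40 R848-only and 25 untreated-only peaks, with gene ends within 20 kb, at 29 and 26, and when the −log10 q had to reach 5, at 8 and 0. Counts over all genes were not made under these alternatives, so the turn is no result about the lists.

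**Figure D5:**
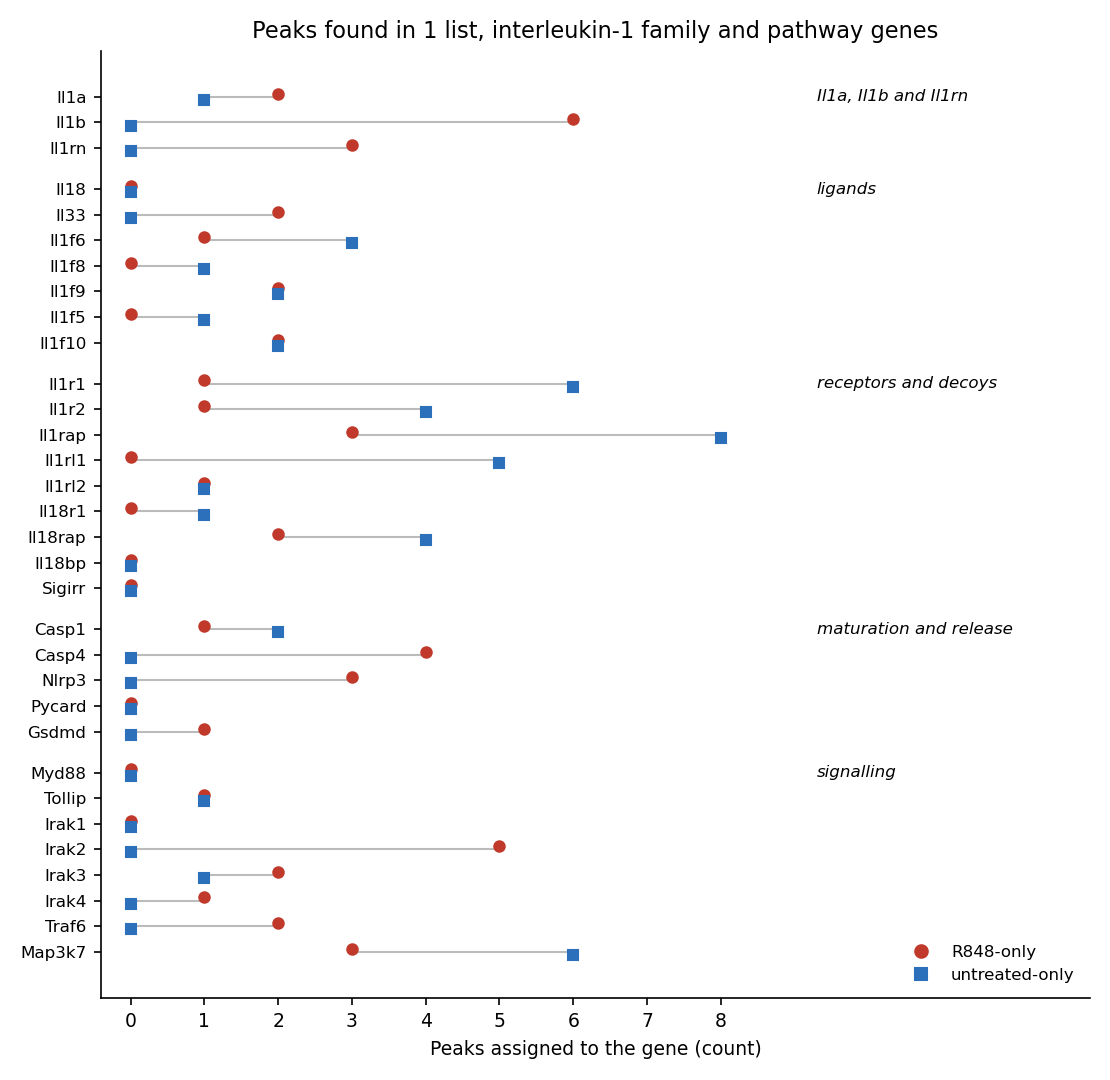
R848-only peaks (circles) and untreated-only peaks (squares) assigned to Il1a, Il1b, Il1rn and the 29 family and pathway genes, by role. Receptor and decoy genes hold 8 R848-only and 29 untreated-only peaks, and maturation and release genes hold 9 and 2.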

How the data were processed

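ATAC-seq peaks of 2 libraries were used, 1 per group. Per the labels' protocols, a commercial Tn5 kit was used on lysed cells, with PCR amplification afterwards. Per the submitters' processing notes, bcl2fastq 2.19, Bowtie2 2.2.6 and MACS2 2.2.7.1 were used on mm10. Settings, duplicate handling and insertion shifts are not given in the sources used here. Both deposited lists give a fold ratio, a −log10 p and a −log10 q per peak, and a score, 10 times the −log10 p, that was not used.

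Pileup n and background b were solved from fold = (n + 1)/(b + 1) and the Poisson tail p, which matched within 0.1% for 99.9% of peaks in each list, and the solver was checked on simulated data. Counts per gene used 21883 RefSeq protein-coding genes of the same build, and peaks sharing at least 1 bp were called present in both lists. Starts and strands came from the RefSeq promoter windows. PCR copies are not independent molecules, so intervals cover counting error only. The genes and lists were chosen with earlier results of these data known. Genes were named as members, as list members, as 3 neighbours per side, and as up to 8 genes alike in counts, leaving out Gm and Rik genes. Scripts ran in Python 3.11.15 with scipy 1.17.1, pandas 2.3.3, matplotlib 3.10.9 and numpy 2.4.6. In all, 8 alternatives were tried, on the threshold, the overlap, the assignment and the list length.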

Additional observations from a re-analysis of the deposited data

How the results depend on the processing

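No paired analysis was possible because each group has 1 library. For Il1a, Il1b and Il1rn together, 6 of 8 alternatives kept the 11 R848-only peaks within 1.5 times. The exceptions were a −log10 q of at least 5 in both lists, with 2, and counting a peak for every gene with an end within 50 kb, with 17. Untreated-only peaks, 1 as called, numbered 0 when the −log10 q had to reach 1.3 or 5 and with lists of equal length, and 5 with every gene within 50 kb. The peak present in both lists was absent at a −log10 q of at least 5, leaving 0. Il1b had 2 to 7 R848-only peaks and no untreated peak under the 8 alternatives, but they could not test that absence. Limits on q, lists of equal length and a shorter reach only remove peaks, and overlap rules only relabel them. The stretch without untreated peaks ran more than 50 kb beyond both ends of Il1b. Assignment by the gene that holds the summit or within 50 kb therefore had no untreated peak to add. Il1a had 0 to 5 and Il1rn 0 to 7 R848-only peaks, with 0 for both when the −log10 q had to reach 5 and the highest values with every gene within 50 kb. In that last setting untreated-only peaks numbered 2 at Il1a and 3 at Il1rn, against 1 and 0 as called.

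For the family and pathway lists, the 38 R848-only peaks became 21 and 8 when the −log10 q had to reach 1.3 and 5. The 48 untreated-only peaks became 31 and 0 at these limits. Lists of equal length gave 40 R848-only and 25 untreated-only peaks, and gene ends within 20 kb gave 29 and 26, so the balance turned under these alternatives and at a limit of 5. Equal length shortened the untreated list alone, and counts over all genes were not made under any alternative. The turn is therefore no result about the lists. The 6 R848 peaks present in both lists became 0 at a −log10 q of at least 5, 24 with every gene within 50 kb and 1 when at least 50% of both peaks had to overlap. A stricter limit and a shorter reach leave fewer peaks to count, and counting a peak for every gene within reach adds peaks. Depth limits single sites, since a pileup of 6 to 9 tags has a wide counting interval.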
